A study of Mus musculus with 4 samples.

Results

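The microRNAs miR-208a, miR-208b and miR-499 are encoded in introns of myosin heavy chain genes and were measured here in extracellular vesicles of cultured mouse muscle cells. The members were found by mature miRNA identifier for miR-208a-3p (MIMAT0000520), miR-208b-3p (MIMAT0004939) and miR-499-5p (MIMAT0003482), and the other arm of each hairpin was added where it lay on the same strand within 60 bases. This gave 6 of the 2110 rows of the count table, both arms of 3 hairpins. The vesicles came from C2C12, an established line of mouse myoblasts with the genotype label WT in every sample, grown in a medium with 10% fetal bovine serum. In the damaged group (2 libraries) the cells were treated with hydrogen peroxide, an oxidant. In the WT group (2 libraries) the treatment label is WT. The labels give neither the dose and duration of the peroxide nor whether the replicates are separate cultures. All p-values therefore rest on the spread between these libraries, which may be technical. The series set out to compare the vesicle miRNAs of healthy and of damaged muscle.

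Each of these miRNAs is cut from the transcript of its host gene, first as a hairpin and then as a short duplex, of which mainly one strand, the guide, is loaded into Argonaute and represses mRNAs that match its seed. Myh6 encodes the alpha heavy chain of cardiac myosin, Myh7 the beta heavy chain of slow skeletal muscle and heart, and Myh7b a further slow-type heavy chain. In mice, miR-208a is known from the stress response of the heart, and miR-208b and miR-499 are known to favour the slow fibre program of skeletal muscle.

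The 3 hairpins lie on the strand of their hosts, inside introns of the principal transcripts in GENCODE vM21 (mm10, the build of the count table). Mir208a lies on chromosome 14 at 54949060 to 54949142, minus strand, in intron 29 of Myh6. Mir208b lies on the same strand of chromosome 14 at 54975700 to 54975776, in intron 31 of Myh7. Mir499 lies on the plus strand of chromosome 2 at 155622880 to 155622958, in intron 19 of Myh7b. The hairpins are printed from RefSeq (GRCm38.p6) to show which arm each counted row covers, with the 5p and 3p mature sequences in capitals and the 5p arm first.
Mir208a: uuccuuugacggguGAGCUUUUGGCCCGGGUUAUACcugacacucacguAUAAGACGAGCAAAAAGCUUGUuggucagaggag
Mir208b: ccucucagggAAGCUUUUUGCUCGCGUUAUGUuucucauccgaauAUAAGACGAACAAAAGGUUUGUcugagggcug
Mir499: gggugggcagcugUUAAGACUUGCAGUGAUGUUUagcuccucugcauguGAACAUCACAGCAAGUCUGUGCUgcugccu

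The mature sequences, also from RefSeq, are set out to compare the seeds (bases 2 to 8, in capitals), which decide the targets of a miRNA.
miR-208a-3p: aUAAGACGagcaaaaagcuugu
miR-208b-3p: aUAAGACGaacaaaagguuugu
miR-499-5p: uUAAGACUugcagugauguuu
miR-208a-5p: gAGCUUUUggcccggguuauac
miR-208b-5p: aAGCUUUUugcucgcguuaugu
miR-499-3p: gAACAUCAcagcaagucugugcu
miR-208a-3p and miR-208b-3p have the same seed and are identical at 19 of 22 bases, with the differences G10A, A16G and C18U, counted from the 5′ end with the base of miR-208a-3p first. miR-499-5p shares bases 2 to 7 with both, and no other row of the table that was matched to a sequence has these 6 bases there. The group is thus joined by sequence through the 3p arms of mir-208a and mir-208b and the 5p arm of mir-499. The other arms share less: miR-208a-5p and miR-208b-5p have one seed, also found in miR-6415, which had 0 counts in every library, and no other matched row has the seed of miR-499-3p. Each member has 1 row, and none shares bases with an entry on the opposite strand, whose reads could otherwise not be told apart.

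Library totals ran from 4577668 to 7638663 counts, WT replicate 1 being the shallowest. A count of 0 allows up to 3 counts in a library, or 0.393 to 0.655 CPM, the count scaled to library size, and this floor and all intervals of single libraries cover counting error only. Defining myoblast and myotube miRNAs were present in every library, led by miR-206-3p with 28.6% to 32.6% of counts in WT and 33.9% to 36.6% in damaged. A list of 7 markers of blood cells and liver, which serum can carry, summed to 0.150% to 0.169% of counts in WT and 0.144% to 0.151% in damaged, nearly all of it miR-451a, a miRNA of red blood cells, with 7603 and 11346 counts in WT and 10291 and 10423 in damaged. Some other rows of that list went with the groups. miR-144-3p, of the same cluster as miR-451a, had 0 and 0 counts in WT replicates 1 and 2 and 12 and 14 in damaged replicates 1 and 2. miR-142a-5p, a miRNA of blood cells, had 1 and 0 against 21 and 22. Neither passed the test between the groups (adjusted p = 0.0807 and 0.0903 by edgeR), and their part in the values of the family was not tested. miR-144-5p, the other arm of miR-144-3p, had 9 and 0 counts in WT and 0 and 0 in damaged, the other way round, and had too few reads to test. miR-223-3p, also of blood cells, had 119 and 100 counts in WT and 99 and 108 in damaged. Scaled for depth, this was 26.4 and 13.1 CPM in WT and 14.4 and 14.4 CPM in damaged, so WT replicate 1 stood highest. Among the other rows of the list, miR-142a-3p and miR-122-5p were listed at 0 in every library, and both share bases with an opposite-strand entry. Part of any level may stem from serum, since bovine miRNAs of identical sequence would be counted too, and this was not tested. A lower level in these bulk preparations can also mean fewer vesicles that carry a miRNA or fewer copies per vesicle, which cannot be told apart.

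No member passed the test for a difference between damaged and WT. miR-499-5p and miR-208b-3p nevertheless had higher values in both damaged libraries than in either WT library, miR-499-3p had lower ones, and miR-208a-3p overlapped between the groups. Of 4 members with enough reads to test, edgeR's quasi-likelihood test called 0 at an adjusted p under 0.05, against 9.51% of the 536 rows tested (51 rows, with 4.10% higher and 5.41% lower). At an unadjusted p under 0.05 it found 3 of 4 members, against 30.8% of all tested rows, and DESeq2 and limma-voom each called 2 of 4, where they called 20.3% and 14.7% of the 536 rows. Groups that do not overlap were common in this table: 29.1% of tested rows had both damaged libraries above both WT libraries, as 2 members had, 30.8% had them below, as 1 member had, and 59.9% did either. The median log2 fold change was 0.36 over the 4 members and 0.02 over all tested rows. The 51 calls became 0 without WT replicate 1, without WT replicate 2 or without damaged replicate 1, where 103, 124 and 144 rows still had an unadjusted p under 0.05, and there were 30 calls without damaged replicate 2.

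**Figure D1:**
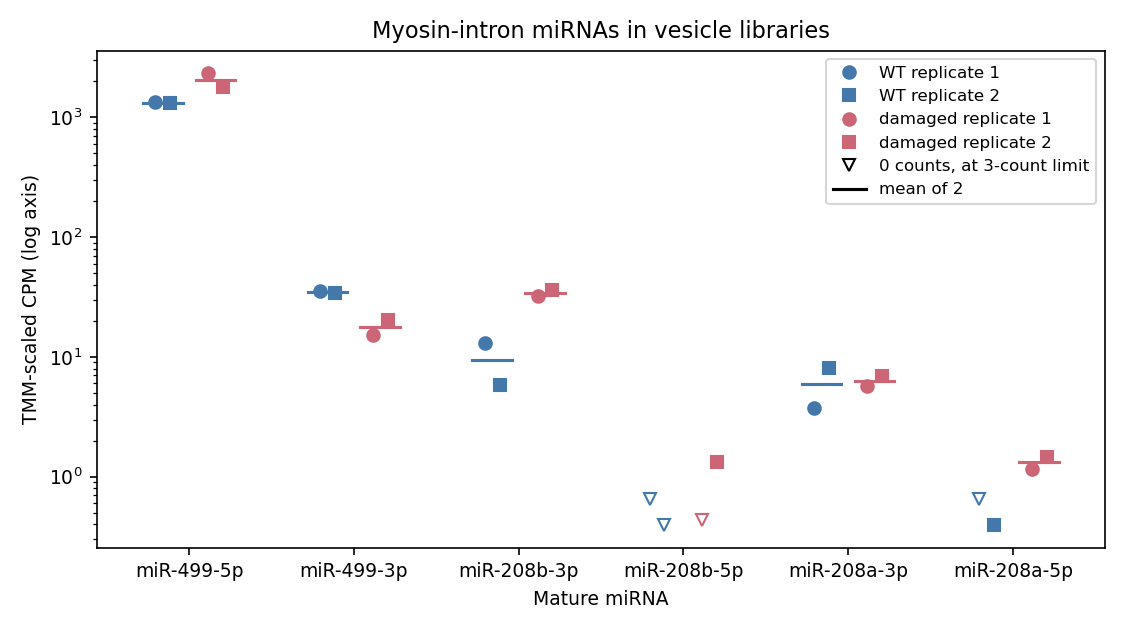
TMM-scaled CPM (log axis) of the 6 mature miRNAs in each library, WT in blue and damaged in red, with a bar at the mean of 2 libraries where both have reads; open triangles mark libraries with 0 counts, at the 3-count limit. miR-499-5p stands at 1320 CPM or more in all 4 libraries, and the other rows at 35.9 CPM or less.

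miR-499-5p, the guide strand of the Myh7b intron, was by far the most abundant of the family in these vesicles. It had 6041 and 10053 counts in WT replicates 1 and 2, and 15999 and 13523 in damaged replicates 1 and 2. Scaled for depth (TMM), this was 1338 and 1320 CPM in WT and 2334 and 1798 CPM in damaged. The WT libraries lay close together, the damaged ones lay apart from each other, and the groups did not overlap. The row ranked 56 in both WT libraries and 41 and 47 in the damaged ones among the 2110 rows. The WT mean was 1329 ± 12.4 CPM and the damaged mean 2066 ± 379 CPM (SD, n = 2). The log2 fold change of 0.64 ± 0.16 (SE) stands for 1.55-fold, with a 95% interval of 1.18 to 2.06. The adjusted p was 0.0609 by edgeR, just beyond the threshold, and the unadjusted p was 0.00921. Without damaged replicate 1, the library with the highest level, the log2 fold change was 0.41, and it was 0.80 without damaged replicate 2.

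miR-208b-3p, the guide strand from the Myh7 intron, had the largest fold change of the 4 tested members, at a level far below that of miR-499-5p. It had 59 and 44 counts in WT replicates 1 and 2, and 219 and 270 in damaged replicates 1 and 2. This was 13.1 and 5.78 CPM in WT and 31.9 and 35.9 CPM in damaged. Both damaged libraries lay above both WT libraries, and the WT libraries differed from each other beyond counting error, with exact 95% intervals of 9.81 to 16.6 and 4.19 to 7.73 CPM before TMM scaling. The WT mean was 9.42 ± 5.15 CPM and the damaged mean 33.9 ± 2.80 CPM (SD, n = 2). The log2 fold change was 1.87 ± 0.45 (SE), or 3.66-fold with a 95% interval of 1.67 to 8.02, and the adjusted p was 0.0544 by edgeR. Its size depended on the WT library used: the log2 fold change was 2.47 without WT replicate 1 and 1.40 without WT replicate 2, with adjusted p = 0.134 and 0.161.

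miR-208a-3p, the guide strand from the Myh6 intron, overlapped between the groups, and no difference was detectable. It had 17 and 61 counts in WT replicates 1 and 2, and 39 and 52 in damaged replicates 1 and 2. This was 3.76 and 8.01 CPM in WT and 5.69 and 6.92 CPM in damaged, so both damaged libraries lay between the WT ones. The WT libraries differed from each other beyond counting error, with exact 95% intervals of 2.16 to 5.95 and 6.11 to 10.3 CPM before TMM scaling. edgeR gave a log2 fold change of 0.08 ± 0.57 (SE) with an adjusted p of 0.952, and the 95% interval of the fold, 0.394 to 2.85, holds changes of more than 2-fold in either direction. Its sign turned without WT replicate 1 (-0.42), without damaged replicate 2 (-0.07) and with upper-quartile scaling (-0.01). The mean of miR-208a-3p over 4 libraries ranked 366, that of miR-208b-3p 249 and that of miR-499-5p 50 among all rows. All levels are counts per mature sequence of 21 to 23 bases, without scaling for length.

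**Figure D2:**
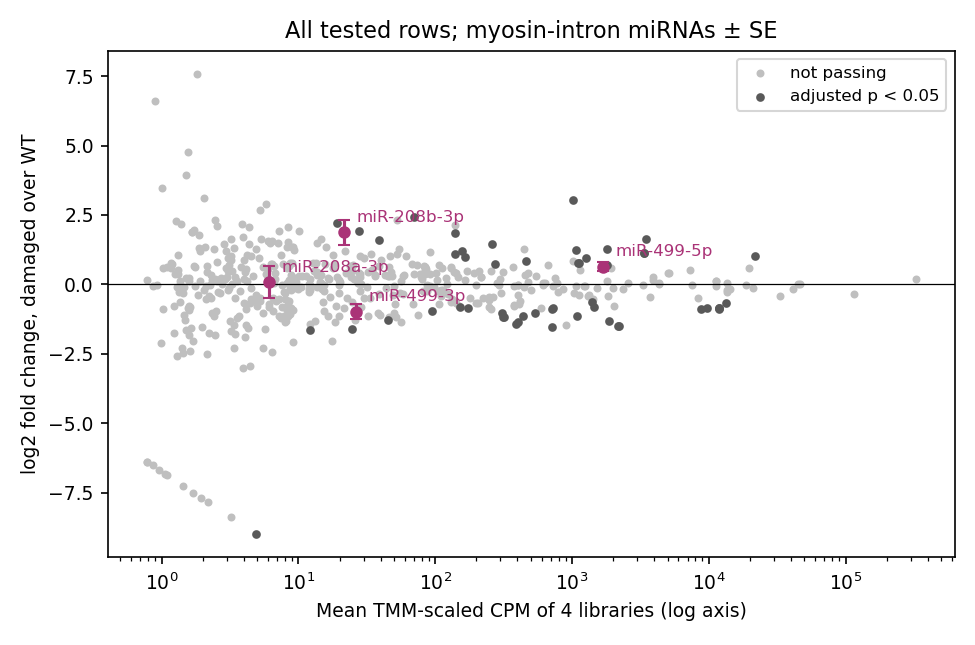
log2 fold change of damaged over WT against mean TMM-scaled CPM of 4 libraries (log axis) for the 536 tested rows, with rows past an adjusted p of 0.05 in dark grey and the 4 tested members in purple with bars of 1 SE. miR-208b-3p and miR-499-5p lie above 0, miR-499-3p below 0 and miR-208a-3p at 0.08, none of them past the threshold.

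Of the other arms, which are mostly discarded after the guide is loaded, only miR-499-3p had enough reads to test. It had 161 and 261 counts in WT replicates 1 and 2 and 104 and 152 in damaged replicates 1 and 2, or 35.7 and 34.3 CPM against 15.2 and 20.2 CPM. Both damaged libraries lay below both WT libraries, opposite to the 5p arm of the same hairpin. The WT mean was 35.0 ± 0.974 CPM and the damaged mean 17.7 ± 3.57 CPM (SD, n = 2). The log2 fold change was -0.98 ± 0.28 (SE) with a 95% interval of -1.68 to -0.28 and an adjusted p of 0.0790 by edgeR.

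miR-208a-5p and miR-208b-5p did not pass the filter on low counts. miR-208a-5p had 0 and 3 counts in WT replicates 1 and 2, and 8 and 11 in damaged replicates 1 and 2. The WT libraries were thus at or under the 3-count floor and the damaged ones above it, and all 3 WT counts came from WT replicate 2. Pooled over libraries and scaled by their totals, the 19 counts in damaged stood to the 3 in WT as 5.43 to 1, with an exact 95% interval of 1.60 to 28.6 that covers counting error only. In values added after seeing the data, the ratio was 3.39 to 1 without WT replicate 1, with an interval of 0.999 to 17.9. Without WT replicate 2 the WT count was 0, and with the floor of 3 counts in its place the ratio was 2.03 to 1. That value leaves out the counting error of the 19 damaged counts and is not a lower limit. Fitted without the filter, the row had a log2 fold change of 2.56 ± 2.80 (SE) and an adjusted p of 0.680 by edgeR. miR-208b-5p had 10 counts in damaged replicate 2 and 0 in each of the other libraries, so no fold is given.

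Within the mir-499 hairpin the 3p arm took a smaller share of the reads in both damaged libraries. It held 2.60% of hairpin reads in WT replicate 1 (exact 95% interval 2.21 to 3.02) and 2.53% in WT replicate 2 (2.24 to 2.85). Its share was 0.646% in damaged replicate 1, with an interval of 0.528 to 0.782, and 1.11% in damaged replicate 2, with 0.943 to 1.30. Each damaged interval lay below both WT intervals, and the damaged libraries also differed from each other. As a ratio, 37.5 and 38.5 reads of miR-499-5p were counted for each read of miR-499-3p in WT, and 154 and 89.0 in damaged. The 5p arm held a mean of 97.4% ± 0.0462 in WT against 99.1% ± 0.329 in damaged (SD, n = 2). An exact two-sided permutation test gave p = 0.333, the smallest that 2 libraries against 2 allow.

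The same ratio was then fitted for all 150 hairpins with both arms tested, using limma on log2 of 5p over 3p reads with 0.5 reads added to each. For mir-499 the log2 ratio differed by 1.62 ± 0.45 (SE; 95% interval 0.30 to 2.94) between damaged and WT, and this did not pass (adjusted p = 0.360 by limma, unadjusted p = 0.0281). limma called 3 of the 150 hairpins, or 2.00%, and 11.3% were at an unadjusted p under 0.05. By absolute size, mir-499 ranked 25 of 150. The middle 90% of hairpins ran from -2.50 to 1.59, which ends just below its value.

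The hairpins of mir-208a and mir-208b showed the opposite arm balance, with 3p as the main arm, and too few reads for such a fit. The 5p arm of mir-208a held 0 of 17 hairpin reads in WT replicate 1, with an exact 95% interval of 0 to 19.5, and 4.69% of 64 in WT replicate 2 (0.977 to 13.1). Its share was 17.0% of 47 reads in damaged replicate 1, with an interval of 7.65 to 30.8, and 17.5% of 63 reads in damaged replicate 2, with 9.05 to 29.1. The damaged values were the higher ones, with intervals that overlap those of WT. The 5p arm of mir-208b held 3.57% of 280 reads in damaged replicate 2 (1.73 to 6.47) and none in the other libraries, where the intervals reach 6.06%, 8.04% and 1.67% in WT replicates 1 and 2 and damaged replicate 1.

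**Figure D3:**
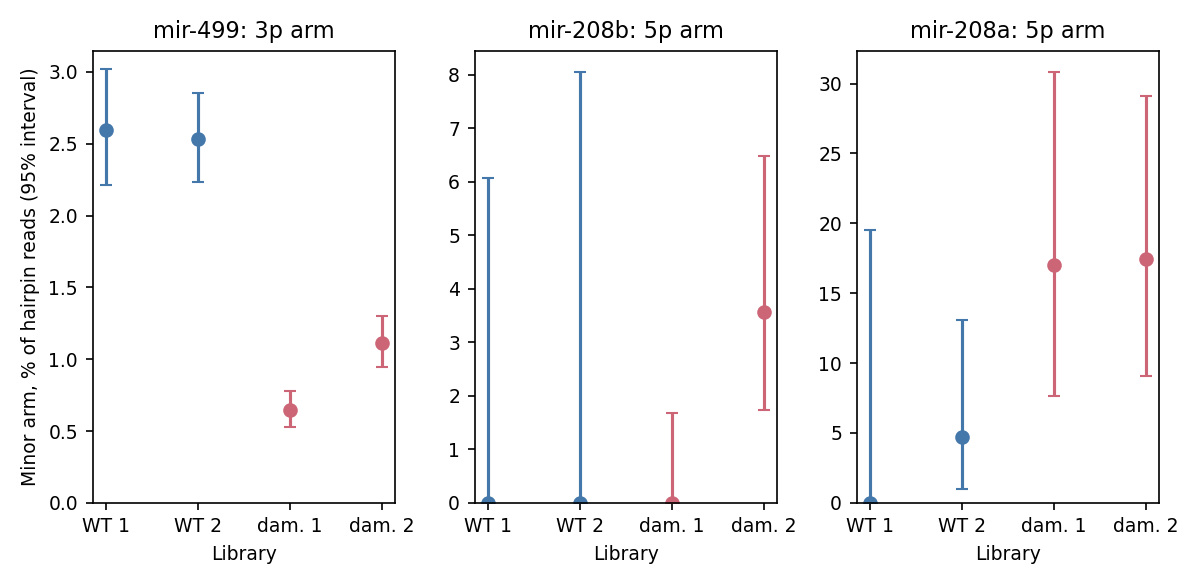
Share of hairpin reads on the minor arm (3p for mir-499, 5p for mir-208b and mir-208a; percent, each panel with its own axis) in WT replicates 1 and 2 (blue) and damaged (dam., red) replicates 1 and 2, with exact 95% binomial intervals. For mir-499 both damaged libraries, at 0.646% and 1.11%, lie below the WT ones at 2.60% and 2.53%, whereas the intervals for mir-208a are wide.

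The make-up of the family, which within a library needs no scaling, was set by miR-499-5p. It held 97.7% to 99.0% of the reads of the 3 guide strands that share bases 2 to 7. Per read of miR-208b-3p there were 102 and 228 reads of miR-499-5p in WT replicates 1 and 2, and 73.1 and 50.1 in damaged replicates 1 and 2. Both damaged ratios lay below both WT ratios. Between the closely similar guides, miR-208b-3p made up 77.6% of their summed reads in WT replicate 1 (exact 95% interval 66.6 to 86.4) and 41.9% in WT replicate 2 (32.3 to 51.9). Its share was 84.9% in damaged replicate 1, with an interval of 79.9 to 89.0, and 83.9% in damaged replicate 2, with 79.4 to 87.7. WT replicate 2 was the only library with more reads of miR-208a-3p than of miR-208b-3p, and the interval of WT replicate 1 overlapped those of both damaged libraries. Reads with errors at the 3 differing bases could be counted for the wrong one, and this was not tested.

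Together the 6 rows held 0.137% and 0.136% of all counts in WT replicates 1 and 2, and 0.237% and 0.191% in damaged replicates 1 and 2. The WT mean was 0.137% ± 0.000500 and the damaged mean 0.214% ± 0.0329 (SD, n = 2). The exact permutation p was again 0.333, the smallest possible. Without miR-499, the 4 rows of mir-208a and mir-208b held 0.00166% and 0.00141% in WT and 0.00385% and 0.00467% in damaged. Both sums were higher in each damaged library than in each WT library. The sum without miR-499 rests on 76 and 108 counts in WT and on 266 and 343 in damaged.

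The calls of the members depended on the test and filter, while the signs of 3 of them did not. The groups of these 3 did not overlap, as in 59.9% of all tested rows. Leaving out 1 library could therefore hardly turn their sign, and a kept sign in those fits is no added support. miR-208b-3p and miR-499-5p each passed in 6 of 10 other settings on all 4 libraries, with log2 fold changes of 1.84 to 2.09 and of 0.57 to 0.81. Among the 6 is the replicate block, which pairs libraries by replicate number, although no label gives such a pairing. Another is the fit with no filter, which had 2002 degrees of freedom for 4 libraries. In both fits the SE of both miRNAs stayed near that of the reported fit while the p-value fell. For miR-208b-3p the SE was 0.46 with the block, 0.39 with no filter and 0.45 in the reported fit. Its unadjusted p by edgeR was 2.9e-05, 1.2e-06 and 0.0076 in turn. Both miRNAs passed with DESeq2 (adjusted p = 0.00527 and 0.00381) and limma-voom (0.0240 and 0.0475). miR-499-3p passed in 1 of 10, the stricter filter on low counts (adjusted p = 0.0493 by edgeR), with log2 fold changes of -1.04 to -0.94. That filter asks for 10 CPM in 2 libraries. miR-208b-3p met it only with the damaged libraries, where it was high, since WT replicate 2 had 5.76 CPM before TMM scaling. Its pass there is therefore not independent support. The share of all rows that passed moved too, from 9.51% in the reported fit to 20.3% with DESeq2, 14.7% with limma-voom and 14.4% with upper-quartile scaling. It was 23.7% with the replicate block, 13.1% with no filter and 28.6% of the 318 rows left by the stricter filter. With a GC correction chosen after seeing the data, where miR-499-5p passed and miR-208b-3p did not, the share was lower, at 7.84%. When any 1 library was left out, none of the members passed, and the signs of these 3 were kept in all 4 such fits. Those fits set 2 libraries against 1 and called 0, 0, 0 and 30 rows of the whole table, so a member that did not pass in them says little about that member.

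**Figure D4:**
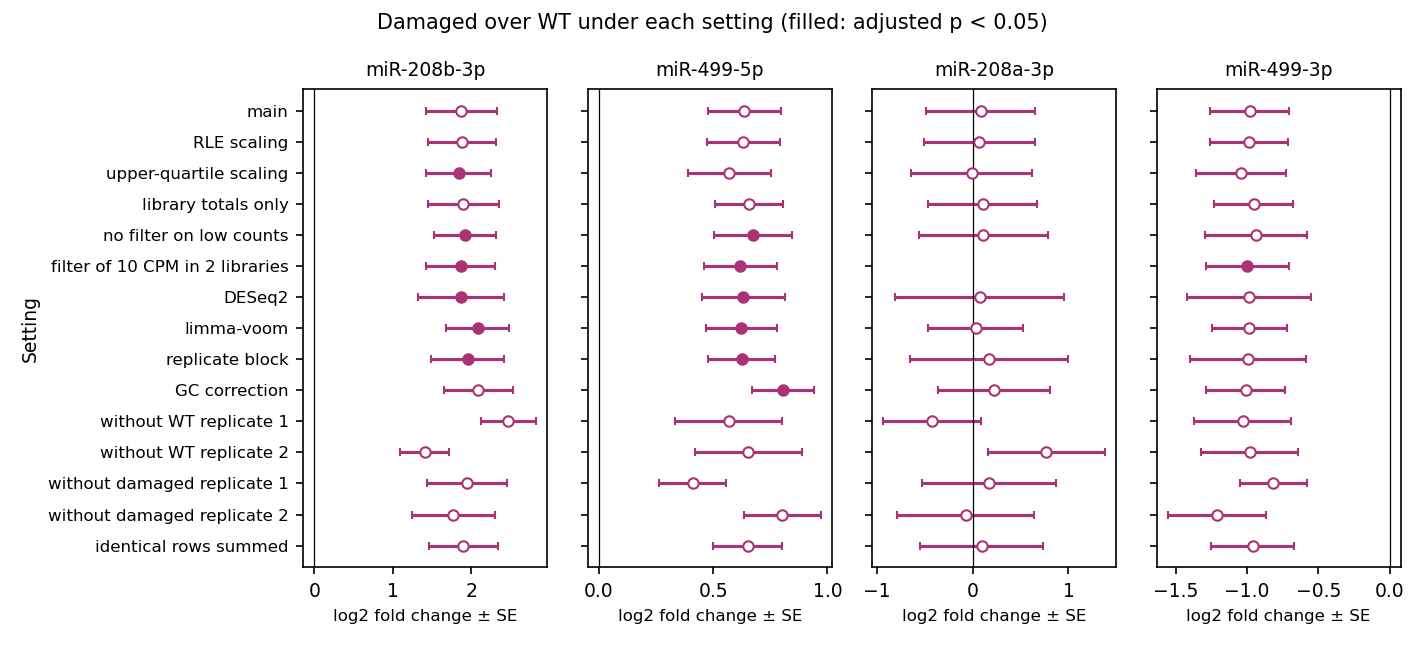
log2 fold change of damaged over WT, with bars of 1 SE, for miR-208b-3p, miR-499-5p, miR-208a-3p and miR-499-3p under the reported fit (top line, named main) and 14 other settings; filled points passed an adjusted p of 0.05, and a missing point means that the row was not tested. The values of miR-208b-3p and miR-499-5p stay above 0 and those of miR-499-3p below 0, whereas miR-208a-3p lies on both sides.

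Among other muscle miRNAs in the same libraries, rows of miR-133 rose in damaged. Of a list of 15 names of the miR-1, miR-133, miR-206 and miR-486 families, 16 rows were found and 8 tested, of which 3 rose, 0 fell and 5 did not pass, against 4.10% of all tested rows that rose. The list was chosen with earlier results of these data known, so this comparison is not independent. The median log2 fold change of the 8 rows was 1.18. The list is not a full tally of these families: it leaves out miR-133b-5p, the other arm of miR-133b-3p, which had 80 and 103 counts in WT and 110 and 148 in damaged and did not pass (log2 fold change 0.20, adjusted p = 0.765 by edgeR). With it, an addition made after seeing the data, 3 of 9 tested rows rose, 6 did not pass and the median was 1.14. The rows that rose were the copies of miR-133a-3p from Mir133a-1 and Mir133a-2, which share 1 sequence, and miR-133b-3p. With identical rows summed, 2 of 6 tested rows of the list of 15 names rose. miR-133b-3p, which lies in one cluster with miR-206, stood at 639 ± 34.3 CPM in WT against 1492 ± 125 in damaged (SD, n = 2), with an edgeR log2 fold change of 1.22 and an adjusted p of 0.0107. Those 3 calls became 0 without WT replicate 1, without WT replicate 2 or without damaged replicate 1, where 4, 5 and 5 rows still had an unadjusted p under 0.05. Of the 16 rows, 6, among them miR-486-5p, miR-1b-3p and 1 copy of miR-1a-3p, had 0 counts in every library and share bases with an opposite-strand entry.

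The rows most like miR-499-5p in pattern were sought by the distance of log2 CPM, centred on the mean of the 4 libraries, from its own. The nearest 5 of 532 rows were miR-467d-5p (distance 0.147), miR-880-3p (0.153), miR-22-5p (0.185), miR-30d-5p (0.190) and miR-741-5p (0.225), where the median distance over all rows was 1.15. Each was higher in both damaged libraries and highest in damaged replicate 1, as miR-499-5p was, which largely follows from the choice by these same values. None of the 5 passed the edgeR test. miR-30d-5p, a member of the miR-30 family, stood at a like level, with 1549 ± 146 CPM in WT against 2331 ± 249 in damaged (SD, n = 2) and an adjusted p of 0.0544. The rows nearest to miR-499-5p in mean level did not share its pattern as a group. miR-29a-3p had 1723 ± 68.5 and 1864 ± 344 CPM and miR-151-5p 2115 ± 156 and 1584 ± 305 CPM in WT and damaged (SD, n = 2), neither of which passed. miR-191-5p and miR-146a-5p rose (log2 fold changes 0.69 and 1.28, adjusted p = 0.0356 and 0.0161 by edgeR), and miR-322-5p fell (-1.33, adjusted p = 0.0180).

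**Figure D5:**
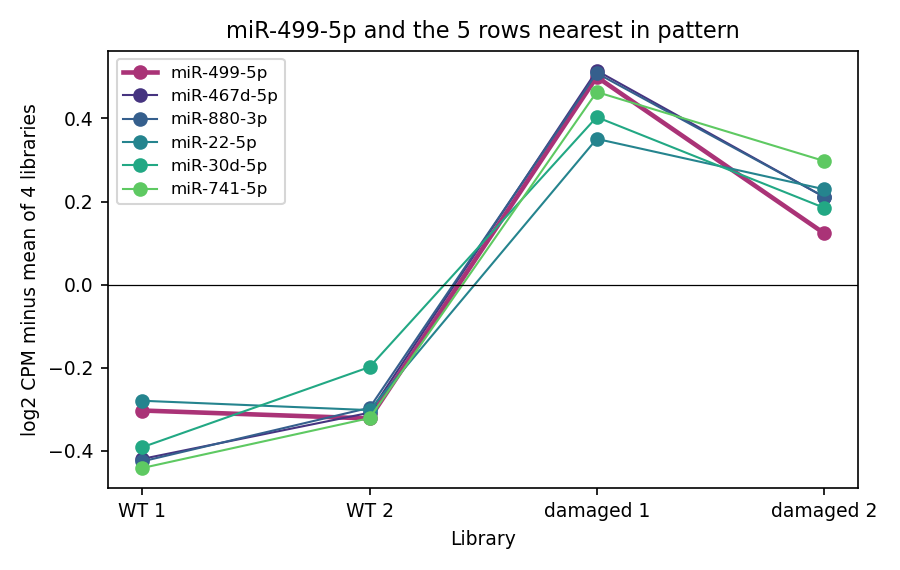
log2 CPM minus the mean of the 4 libraries for miR-499-5p (thick purple line) and the 5 rows nearest to it by distance, from miR-467d-5p (0.147) to miR-741-5p (0.225). All 6 lie below 0 in both WT libraries and above 0 in both damaged ones, with the highest value in damaged replicate 1. The 5 rows were picked by these same values, so their likeness largely follows from the choice. Lines only join the points of a row.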

How the data were processed

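Small RNA libraries of C2C12 vesicles were compared as 2 damaged against 2 WT, grouped by their titles. The deposited values are read counts per mature miRNA row: per the file headers, featureCounts 2.0.1 counted features of type miRNA by ID, with no option for strand, multi-mapping or multi-overlapping reads. The submitters' processing notes name BWA, FastQC and the build mm10; trimming and the BWA version are not stated in the sources used here. Rows were named by position, 1734 from RefSeq (GRCm38.p6), 6 through a shared ID and 358 by their GENCODE vM21 hairpin; 12 stayed unnamed.

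The whole table was fitted with edgeR 4.0.16 (R 4.3.3): TMM, a quasi-likelihood test with no term but group, rows kept by filterByExpr (minimum count 10), and Benjamini-Hochberg adjustment over all 536 rows at 0.05. The SE is the log2 fold change over the square root of F. CPM are TMM-scaled; shares are not. Single-library intervals are exact (Clopper-Pearson, 95%). The script was tested on simulated data. Replicates differed beyond counting error (chi-square per degree of freedom 103 for WT and 199 for damaged). Arm ratios were fitted with limma 3.58.1, and other settings used DESeq2 1.42.0 and limma-voom, among others.

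The members and lists were chosen with earlier results of these data known. Named rows were the members, the muscle list, rows sharing a member's seed (bases 2 to 8 or 2 to 7), and the 5 rows nearest to the most abundant member in pattern and in level.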

Additional observations from a re-analysis of the deposited data

How the results depend on the processing

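With 10 other settings on 4 libraries and 4 that left out 1 library, miR-208b-3p, miR-499-5p and miR-499-3p kept their sign. Their groups do not overlap, so leaving out 1 library could hardly turn it. miR-208b-3p passed with upper-quartile scaling (log2 fold change 1.84), no filter (1.92), at least 10 CPM in 2 libraries (1.86), DESeq2 (1.87), limma-voom (2.08) and the replicate block (1.95). The 10 CPM filter kept miR-208b-3p only through the damaged libraries, where it was high. miR-499-5p passed with no filter (0.67), the 10 CPM filter (0.62), DESeq2 (0.63), limma-voom (0.62), the replicate block (0.62) and a GC correction chosen after seeing the data (0.81). With no filter and with the replicate block, the SE of miR-208b-3p and miR-499-5p stayed near that of the reported fit while their p-values fell. miR-499-3p passed with the 10 CPM filter (-0.997). miR-208a-3p turned sign with upper-quartile scaling (-0.0105); without 1 library it ran from -0.42 to 0.77. The count of 51 called rows became 77 with upper-quartile scaling, 131 with no filter, 91 with the 10 CPM filter, 109 with DESeq2, 79 with limma-voom, 127 with the replicate block, and 0 to 30 without 1 library. The muscle list's 3 calls became 0 to 3 without 1 library and 2 to 4 in the other settings. The cause was not tested, apart from fewer rows or libraries where the setting removes them. No scaling moved the median of all rows by over 0.1.

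The replicate numbers share only a number: deviations of same-numbered libraries had a correlation of 0.003 over 536 rows. The limma fit of arm ratios was also chosen after seeing the data, and mir-499 did not pass in it without any 1 library (1.23 to 2.01) or with 5 reads added (1.60). Depth limits miR-208a-5p and miR-208b-5p most. The latter was listed at 0 in 3 libraries, and both 5p arms could be fitted only without the filter or, for miR-208a-5p, also without a WT library.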
